A study of Mus musculus with 10 samples.

Results

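Transcripts for the subunits of oxidative phosphorylation, encoded by the mitochondrial and by the nuclear genome, were compared across the sorted CD4+ T-cell populations of WT and Satb1-deleted mice. Members were chosen by symbol: mitochondrial genes beginning mt-Nd, mt-Co, mt-Cyb or mt-Atp, and nuclear genes beginning Nduf, Uqcr, Cox4i, Cox5, Cox6, Cox7, Cox8 or Atp5, plus Sdha, Sdhb, Sdhc and Sdhd. As spelled, this rule found 104 symbols. The cytochrome b gene is written mt-Cytb in the files and was added, which gave 105 members of 48321 symbols, 13 mitochondrial and 92 nuclear, and 6 symbols ending in -ps were left out. Because the rule works on symbols, it also took in 7 assembly factors of complex I (Ndufaf1 to Ndufaf7) and 2 further genes, Atp5s and Atp5sl. After the filter on low counts, 94 members were tested, 10 mitochondrial and 84 nuclear.

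Oxidative phosphorylation is carried out in the inner mitochondrial membrane. Complex I (NADH dehydrogenase) and complex II (succinate dehydrogenase) pass electrons to ubiquinone, complex III passes them to cytochrome c, and complex IV (cytochrome c oxidase) passes them to oxygen. Complexes I, III and IV pump protons, and complex V (ATP synthase) uses the return of protons to make ATP. All complexes but complex II are built from subunits of both genomes, so their assembly draws on transcripts made in the nucleus and in the mitochondrion. Regulatory T cells (Tregs) are known to rely on mitochondrial respiration, and FoxP3, the transcription factor that defines them, is known to favour oxidative metabolism.

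RNA was sequenced from spleen CD4+ T cells of C57BL/6 mice that carry a GFP reporter of Foxp3, sorted on 2 markers, the GFP signal, which stands for FoxP3, and surface CD25 (the IL-2 receptor alpha chain). WT mice gave FoxP3+CD25+ cells (Tregs) and FoxP3-CD25- cells (conventional T cells). Mice labelled KO were Satb1 F/F; Thpok-cre, in which Cre is expressed once cells commit to the CD4 lineage and before FoxP3, so both the Tregs and the conventional cells of these mice carry the deletion. KO mice also gave FoxP3+CD25- cells. Each of the 5 groups had 2 libraries, 1 from each of 2 mice per genotype if the numbers in the labels stand for mice, as they imply, and no group was treated. The study's methods describe its mice as young adults of mixed sexes. With 2 libraries a group, p-values measure only the spread between these libraries.

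Libraries held 6094952 to 12410064 counts on genes, and 3 counts, the floor used here, correspond to 0.242 to 0.492 CPM (counts scaled to a common library total) before TMM scaling. The populations carried their markers, and all 6 Treg markers listed were called higher in FoxP3+CD25+ than in FoxP3-CD25- cells of both genotypes. Foxp3 was at 617.7 to 739.1 CPM in the 4 FoxP3+CD25+ libraries, at 317.6 to 361.1 CPM in KO FoxP3+CD25- cells and at 17.96 to 38.9 CPM in FoxP3-CD25- cells. Satb1 was at 379.2 and 477.6 CPM in WT Tregs against 597.8 and 533.5 CPM in KO Tregs, at 817.5 and 880.9 CPM in conventional cells of WT mice against 841.2 and 682.1 CPM in those of KO mice, and at 1186 and 993.2 CPM in KO FoxP3+CD25- cells. The KO Treg total lay above that of WT Tregs, and the conventional cells overlapped. The part of the gene removed by the allele is not given in the sources used here, and a total over all exons does not check the KO label. Xist was at 1854 and 1355 CPM in the 2 libraries of WT mouse 1 and at most 0.662 CPM elsewhere, so that mouse is read as the only female, and its sex cannot be told apart from its other differences. In bulk samples, fewer cells of a kind and less RNA per cell cannot be told apart.

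Of the 13 mitochondrial genes, 7 had ample counts and 6 had almost none. Summed over the 10 libraries, mt-Co1 (catalytic subunit of complex IV) had 480906 counts, mt-Cytb (complex III) 260523, and the complex I subunits mt-Nd1 143296, mt-Nd5 136745, mt-Nd2 101156, mt-Nd6 51799 and mt-Nd4 49473. By contrast mt-Co2 had 183 counts in all, mt-Co3 115, mt-Atp6 102, mt-Atp8 50, mt-Nd3 35 and mt-Nd4l 30. These 6 genes encode core subunits of complexes IV, V and I. Apart from mt-Nd6, all 13 genes are known to be cut from 1 long precursor of the heavy strand.

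The genes with few counts, other than mt-Atp8, have a copy of their whole sequence in the nuclear genome. A run of 7 pseudogenes on the minus strand of chromosome 1 (GRCm38) lies between positions 24611535 and 24616197 and repeats, in order, the mitochondrial sequence from part of mt-Co1 to part of mt-Nd4. All 684 bases of mt-Co2 lie in read-length windows of 50 bases that also occur in another annotated transcript (100% of windows), and 681 of them align to the pseudogene Gm28661 with 0 differing bases. The shares were 99.5% for mt-Atp6, 99.9% for mt-Co3, 98.0% for mt-Nd3 and 98.8% for mt-Nd4l, again with 0 differing bases over the aligned 678, 783, 342 and 294 bases. To show how a read from such a gene has no unique place, the same stretch of mt-Co2 (chrM:7313-7372, plus strand) and of its copy (chr1:24615206-24615265, minus strand) is given here, both in the direction of the gene, from the GENCODE M21 transcripts:

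mt-Co2: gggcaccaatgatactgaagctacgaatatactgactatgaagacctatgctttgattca

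Gm28661: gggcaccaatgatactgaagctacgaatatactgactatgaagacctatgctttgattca

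In mt-Co1 and mt-Nd4 the copy covers a part. In mt-Co1, 51.1% of windows were shared, and its 483 bases aligned to Gm29216 held 1 differing base, shown in capitals at the start of the shared part (chrM:6390-6449, plus strand, and chr1:24616129-24616188, minus strand):

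mt-Co1: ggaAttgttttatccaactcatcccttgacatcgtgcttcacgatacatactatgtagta

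Gm29216: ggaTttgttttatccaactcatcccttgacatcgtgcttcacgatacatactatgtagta

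In mt-Nd4 62.2% of windows were shared, in mt-Nd2 8.19% and in mt-Nd5 7.61%. No window of mt-Nd1, mt-Cytb or mt-Nd6 was found in another annotated transcript. mt-Nd6 is the only member on the light strand, and its first 60 bases (chrM:14011-14070, minus strand) have no annotated copy:

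mt-Nd6: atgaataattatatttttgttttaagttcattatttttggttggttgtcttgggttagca

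Few reads were counted on the pseudogenes either, with 163 counts for Gm10925, 148 for Gm28437, 83 for Gm28661, 78 for Gm28439, 76 for Gm29216, 25 for Gm10222 and 9 for Gm28438 over the 10 libraries. Reads that align to more than 1 place made up 24.9% to 31.7% of all reads per library and were not assigned to genes. mt-Atp8 had 50 counts although 0% of its windows were found in other annotated transcripts. It lies between mt-Co2 and mt-Atp6, whose copies are neighbours on chromosome 1, but the nuclear genome itself was not searched here. Nearly all windows of mt-Co2, mt-Co3, mt-Atp6, mt-Nd3 and mt-Nd4l are shared, so their counts say little about their transcripts. The part of shared sequence in their low counts was not tested. With 50 counts over the 10 libraries, mt-Atp8 is not read here either, and the reason for its low count was not tested. The plot of counts against shared sequence shows how the 13 genes part into 2 kinds by their counts.

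**Figure D1:**
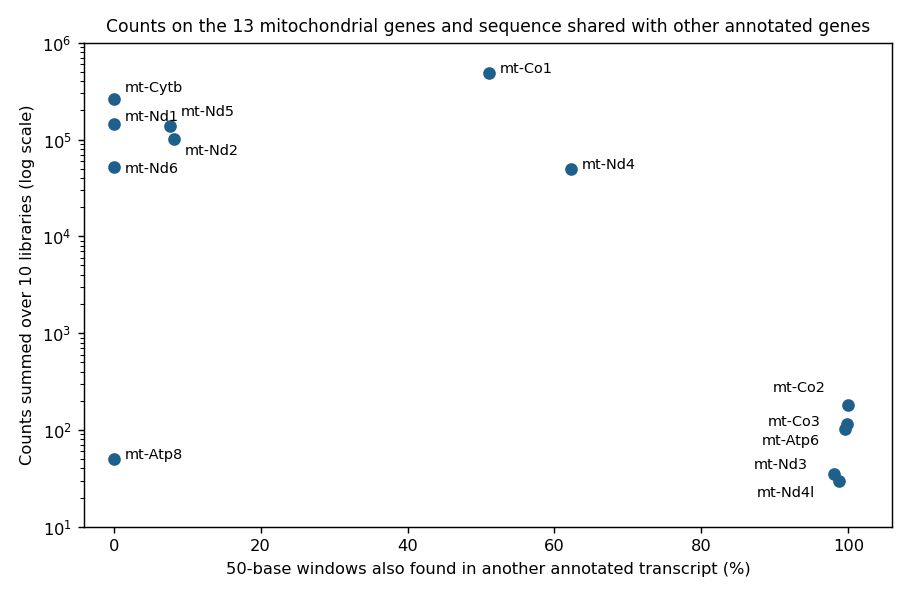
Counts summed over 10 libraries (log scale) for each of the 13 mitochondrial genes against the percent of its 50-base windows that also occur in another annotated transcript. The 5 genes at 98.0% or more had 30 to 183 counts, mt-Atp8 had 50 counts at 0%, and the other 7 had 49473 to 480906.

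Scaled to the windows that no other annotated transcript shares, the 7 genes with ample counts still differed in level. Summed over libraries, mt-Co1 had 657.9 counts per such window, mt-Cytb 237.9, mt-Nd1 157.8, mt-Nd2 111.4, mt-Nd6 110.2, mt-Nd4 98.6 and mt-Nd5 83.4. The highest was mt-Co1, and mt-Nd2, mt-Nd6 and mt-Nd4 lay close together. Per kilobase of exon, mt-Co1 was at 3799 CPM and mt-Cytb at 2766 CPM, while the most abundant nuclear member, Atp5a1 (the alpha subunit of complex V), was at 174.4 CPM.

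In KO mice mt-Nd6, a membrane-arm subunit of complex I, was higher in FoxP3+CD25+ cells than in both other sorted populations. The other 6 readable mitochondrial transcripts were also higher in all KO FoxP3+CD25+ libraries without passing the edgeR test. mt-Nd6 was at 658.2 and 785.6 CPM in KO FoxP3+CD25+ cells, at 491.9 and 493.5 CPM in KO FoxP3-CD25- cells and at 486.5 and 512.6 CPM in KO FoxP3+CD25- cells. Both CD25+ libraries lay above all 4 others, and the other 2 KO populations overlapped. The group means were 721.9 ± 90.1 CPM (SD, n = 2), 492.7 ± 1.14 CPM and 499.6 ± 18.4 CPM. mt-Nd6 was 1.47-fold higher in KO FoxP3+CD25+ than in KO FoxP3-CD25- cells, with a log2 fold change of 0.55 ± 0.13 (SE; edgeR quasi-likelihood test, Benjamini-Hochberg adjusted p = 0.0295). KO FoxP3+CD25- cells had less than KO FoxP3+CD25+ cells, with a log2 fold change of -0.53 ± 0.13 (SE; edgeR adjusted p = 0.0326).

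In the edgeR test mt-Nd6 was the only member called in each comparison, 1 of 94, where 6.34% and 7.01% of all genes tested were called. The call was lost when any of several single KO libraries was left out. For the FoxP3+CD25+ against FoxP3-CD25- comparison the adjusted p of mt-Nd6 rose to between 0.159 and 0.276 without KO FoxP3-CD25- replicate 1, KO FoxP3-CD25- replicate 2 or KO FoxP3+CD25+ replicate 2. For FoxP3+CD25- against FoxP3+CD25+ it rose to between 0.0521 and 0.261 without either KO FoxP3+CD25- library, KO FoxP3+CD25+ replicate 2 or KO FoxP3-CD25- replicate 2. The strand setting of the counting is not given in the sources used here, so reads of mt-Nd6 and reads antisense to it cannot be told apart.

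Of the complex I subunits, mt-Nd5 followed the same order as mt-Nd6. It was at 1677 and 2055 CPM in KO FoxP3+CD25+, at 1256 and 1405 CPM in KO FoxP3-CD25- and at 1259 and 1419 CPM in KO FoxP3+CD25- cells. The log2 fold changes against the FoxP3+CD25+ cells had the same size with opposite sign, 0.49 ± 0.15 (SE; edgeR adjusted p = 0.0951) and -0.48 ± 0.15 (SE; edgeR adjusted p = 0.0912). DESeq2 called mt-Nd5 in both comparisons (adjusted p = 0.0187 and 0.0202), as did edgeR with no filter on low counts (adjusted p = 0.0073 and 0.00834). mt-Nd4, with 606.2 and 714.3 CPM in KO FoxP3+CD25+ cells, was at 475.9 and 554.8 CPM in KO FoxP3-CD25- and 466.3 and 496.0 CPM in KO FoxP3+CD25- cells. It was not called by edgeR (adjusted p = 0.217 and 0.0865), while DESeq2 (adjusted p = 0.0372) and edgeR with no filter (adjusted p = 0.0301) called it in the comparison of KO FoxP3+CD25- with FoxP3+CD25+ cells. The share of all genes called by DESeq2 or with no filter is not given here. With the mouse as a block, which removes differences that the 3 populations of a mouse share, mt-Nd4, mt-Nd5 and mt-Nd6 were called in both comparisons. Under that block 12.0% of all genes were called between KO FoxP3+CD25+ and FoxP3-CD25- cells and 15.1% between KO FoxP3+CD25- and FoxP3+CD25+ cells, so a call was more common for any gene. The adjusted p under the block were 0.0476 and 0.0132 for mt-Nd4, 0.00775 and 0.00788 for mt-Nd5, and 0.00515 and 0.00589 for mt-Nd6.

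The remaining 4 readable genes were not called. mt-Co1 was at 5710 and 6856 CPM in KO FoxP3+CD25+, 5115 and 5502 CPM in KO FoxP3-CD25- and 4921 and 5474 CPM in KO FoxP3+CD25- cells. mt-Cytb was at 3176 and 3764 CPM, 2552 and 2843 CPM, and 2560 and 2903 CPM in these groups. For mt-Nd1 the values were 1684 and 1922 CPM, 1543 and 1680 CPM, and 1484 and 1500 CPM, and for mt-Nd2 they were 1252 and 1347 CPM, 1019 and 1020 CPM, and 1081 and 997.3 CPM. In all 7 genes both KO FoxP3+CD25+ libraries lay above both KO FoxP3-CD25- libraries and above both KO FoxP3+CD25- libraries. The 7 genes had a median log2 fold change of 0.36 in the first comparison and -0.35 in the second, against -0.00123 and 0.00365 over all genes tested. Of all genes tested, 23.6% had both KO FoxP3+CD25+ libraries above both KO FoxP3-CD25- libraries, and 25.3% had them above both KO FoxP3+CD25- libraries. These 7 genes share a genome and a scaling, and 6 of them a precursor, so they are not 7 independent observations. The 2 comparisons also share the KO FoxP3+CD25+ libraries.

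Markers of other cells and states differed in these comparisons. The summed level of 6 B-cell markers was 370.2 to 428.3 CPM in KO FoxP3+CD25+, 223.6 to 271.5 CPM in KO FoxP3-CD25- and 253.8 to 299.1 CPM in KO FoxP3+CD25- cells. Of the 6, 3 were tested, and Cd79b, a chain of the B-cell receptor complex, was called higher in KO FoxP3+CD25+ cells in both comparisons. The number of these markers at 0 in both libraries was 0 in KO FoxP3+CD25+, 1 in KO FoxP3-CD25- and 2 in KO FoxP3+CD25- cells. The summed level of 7 stress and dissociation genes was 4107 to 4361 CPM in KO FoxP3+CD25+, 3192 to 3295 CPM in KO FoxP3-CD25- and 3570 to 3759 CPM in KO FoxP3+CD25- cells, and 1 of the 7 (Dusp1) was called in both comparisons. The summed level of 5 cycling markers was 31.7 to 90.0 CPM in KO FoxP3+CD25+, 78.5 to 151.0 CPM in KO FoxP3-CD25- and 18.1 to 32.8 CPM in KO FoxP3+CD25- cells, and that of 6 myeloid markers 17.6 to 22.9, 21.9 to 23.2 and 22.2 to 25.1 CPM. Of the 3 myeloid markers tested, 1 (Itgam) was called lower in KO FoxP3+CD25+ than in KO FoxP3-CD25- cells (log2 fold change of -1.75, edgeR adjusted p = 0.0207). The part of these in the result was not tested.

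No difference was called between KO FoxP3+CD25- and KO FoxP3-CD25- cells in either set. No member was called between them by edgeR, against 1.67% of all genes, and 1 member (mt-Co2, with the few counts described above) had an unadjusted p under 0.05. No member was called by DESeq2 either. The median log2 fold change was 0.02 over the 10 mitochondrial members tested and -0.09 over the 84 nuclear members. For mt-Nd6 the log2 fold change was 0.02, with a 95% interval of -0.27 to 0.31. Both KO FoxP3+CD25- libraries lay below both KO FoxP3-CD25- libraries in 24 of the 84 nuclear members, where 20.1% of all genes did so.

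In WT mice no mitochondrial gene passed the test between Tregs and conventional cells. Of the 7 readable genes, mt-Nd6 and mt-Nd5 lay higher in Tregs without overlap, where 23.1% of all genes did so. mt-Nd6 was at 736.6 and 823.9 CPM in WT FoxP3+CD25+ cells and at 713.7 and 590.9 CPM in WT FoxP3-CD25- cells, with both Treg libraries higher. The log2 fold change was 0.26 ± 0.13 (SE; edgeR adjusted p = 0.285). Within mice, the log2 difference was 0.05 in WT mouse 1 and 0.48 in WT mouse 2, against 0.42 and 0.67 in the KO mice. mt-Nd5 likewise differed by 0.06 and 0.48 in the WT mice. mt-Nd2 was at 1250 and 1465 CPM in WT FoxP3+CD25+ and at 1589 and 1197 CPM in WT FoxP3-CD25- cells, so the within-mouse differences were -0.35 and 0.29. No mitochondrial member was called in WT mice, against 10.9% of all genes, and none had an unadjusted p under 0.05. No mitochondrial member was called by DESeq2 in this comparison.

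The difference between the genotypes in this contrast was positive in all 7 genes, with log2 values of 0.10 (mt-Co1) to 0.39 (mt-Nd2), and none was called. No gene at all was called for it by edgeR (0% of 13796, with 685 at an unadjusted p under 0.05). A larger effect in KO than in WT cells was therefore not shown for any mitochondrial gene.

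**Figure D2:**
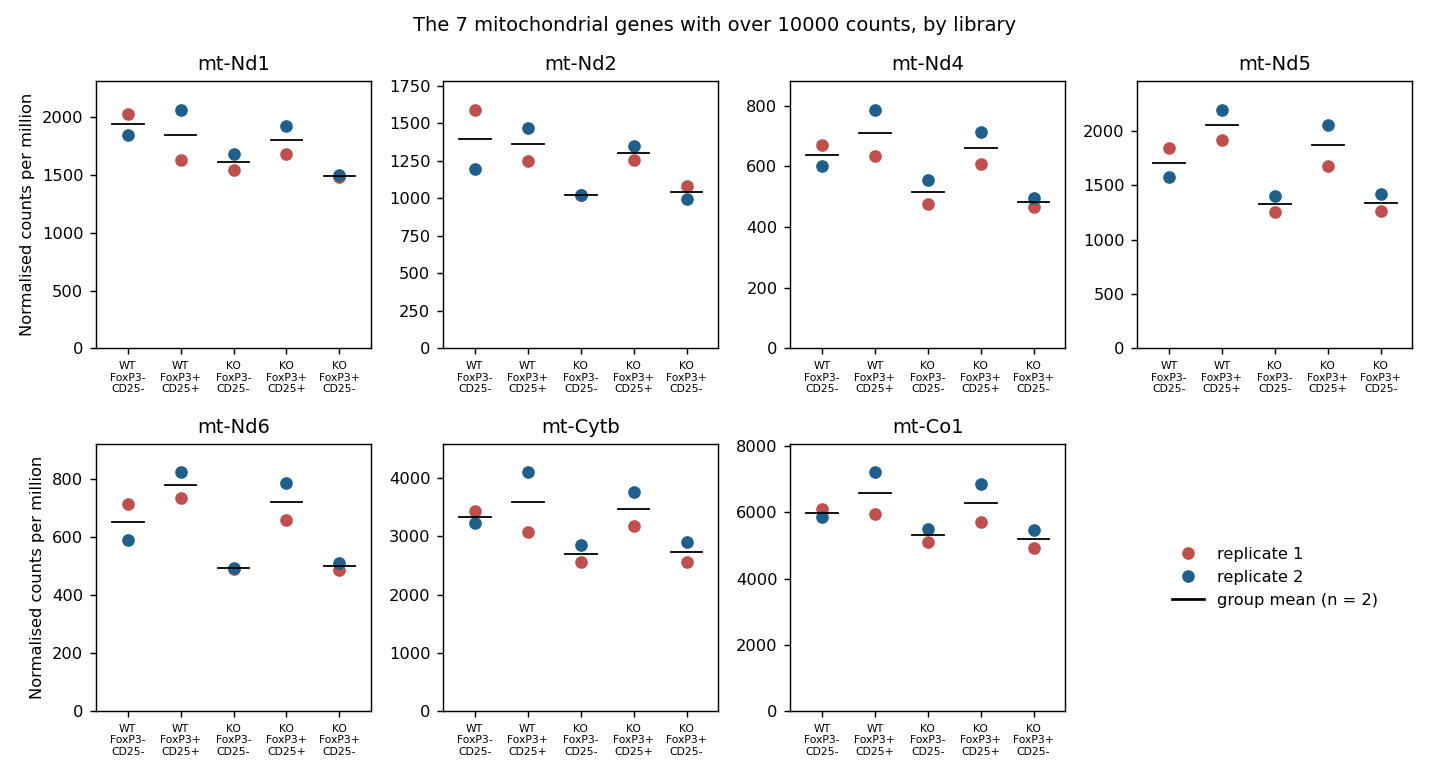
TMM-scaled CPM (linear axis from 0) of the 7 mitochondrial genes with ample counts, in the 2 libraries of each sorted group (points, coloured by replicate number) with the group mean (bar). In every panel both KO FoxP3+CD25+ points lie above the points of the other 2 KO groups, and the 2 WT groups overlap in 5 of the 7 panels.

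Between genotypes no mitochondrial gene passed the test. In FoxP3-CD25- cells both KO libraries lay below both WT libraries in all 7 genes, where 19.3% of all genes did so. As stated above, these are not 7 independent observations. The largest differences were in mt-Nd2 (log2 fold change of -0.45 ± 0.15, SE; edgeR adjusted p = 0.408) and mt-Nd6 (-0.40 ± 0.13, SE; edgeR adjusted p = 0.385). Of the 10 mitochondrial members tested, 4 had an unadjusted p under 0.05, none was called by edgeR or by DESeq2, and 0.145% of all genes were called. In FoxP3+CD25+ cells all 7 genes overlapped between genotypes, with log2 fold changes of -0.14 (mt-Nd5) to -0.04 (mt-Nd1). There 0.00725% of all genes were called, and no member of either set was among them. For mt-Nd5 the 95% interval of the difference was -0.47 to 0.19.

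Most nuclear members were lowest in 1 library. Of the 84 tested, 69 (82.1%) had their lowest CPM in WT FoxP3+CD25+ replicate 1, which held the lowest value of 19.7% of all genes tested. The mean log2(CPM + 0.5) of the 84 genes was 4.79 in that library and 5.14 to 5.39 in the other 9. Against the other WT FoxP3+CD25+ library its nuclear members were lower by a median of 0.61 on the log2 scale, against a median difference of 0.01 over all genes tested. The conventional cells of the same mouse did not share this: there the median of replicate 1 minus replicate 2 was 0.15.

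Other measures moved with that library. Its reads on no gene were 1.53 times its reads on genes, against 1.32 to 1.51 in the other 9. The median of replicate 1 minus replicate 2 in WT FoxP3+CD25+ cells was -0.96 for 77 cytosolic ribosomal protein genes and -0.42 for 77 genes of the mitochondrial ribosome. Other protein-coding genes, split into 4 classes of equal size by exon length, had medians of -0.21 in the shortest class, -0.03 and 0.04 in the next ones and 0.13 in the longest. Of the nuclear members, 60 fell into the shortest class, with a median of -0.69, 16 into the next, with a median of -0.37, 5 into the one after, with a median of -0.68, and 1 into the longest, at -0.11. The part of these measures in the result was not tested.

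**Figure D3:**
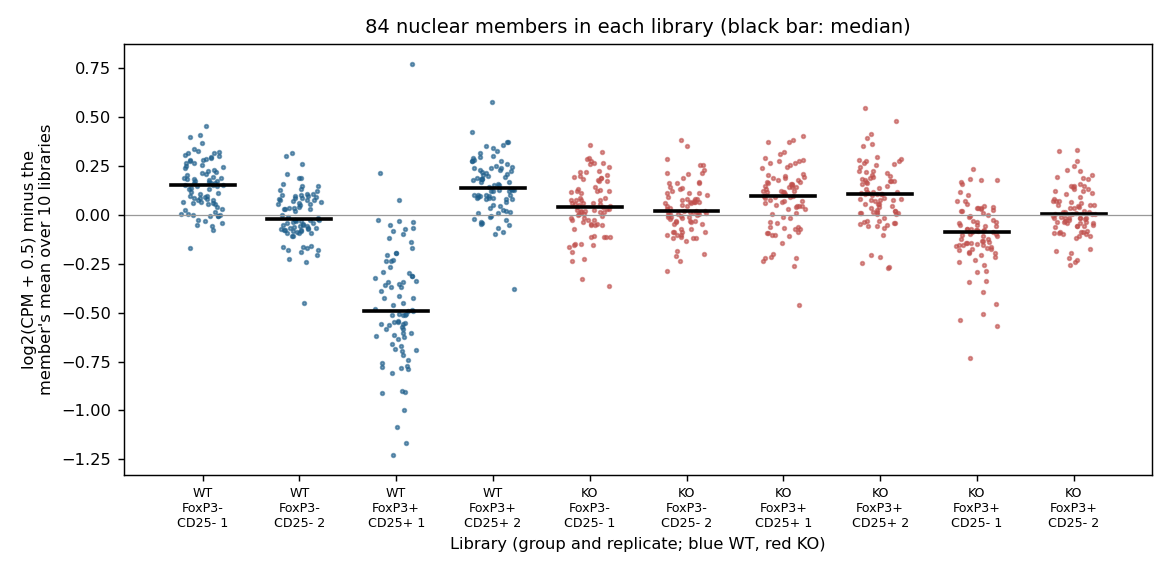
Each point is 1 of the 84 nuclear members in 1 library, as log2(CPM + 0.5) minus that member's mean over the 10 libraries, with the library's median as a bar. WT FoxP3+CD25+ replicate 1 stands below the other 9 libraries, and the median of its replicate 2 lies above 0.

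The median of the nuclear members in WT Tregs, and the number called, depended on which WT FoxP3+CD25+ library was kept. With both, no nuclear member was called against WT FoxP3-CD25- cells by edgeR, where 10.9% of all genes were called, or by DESeq2. Of the 84, 4 had an unadjusted p under 0.05, and the median log2 fold change was -0.19, with 74 negative. Without replicate 1 the median was 0.07 and none was called, the lone WT FoxP3+CD25+ library being assumed to vary like the other groups. Without replicate 2 the median was -0.56 and 30 of 84 nuclear members were called, all lower, where 15.2% of all genes were called. In the same way the KO minus WT median in FoxP3+CD25+ cells was 0.22 with both libraries, -0.06 without replicate 1 and 0.56 without replicate 2. With both libraries, 2 nuclear members had an unadjusted p under 0.05 there and none was called by edgeR or by DESeq2. The difference between genotypes in the Treg contrast had a median of 0.24 with both and -0.03 without replicate 1. Without replicate 2 it was 0.58, with 5 members called (Atp5e, Atp5h, Atp5k, Cox4i1 and Uqcr10) where 0.843% of all genes were called.

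**Figure D4:**
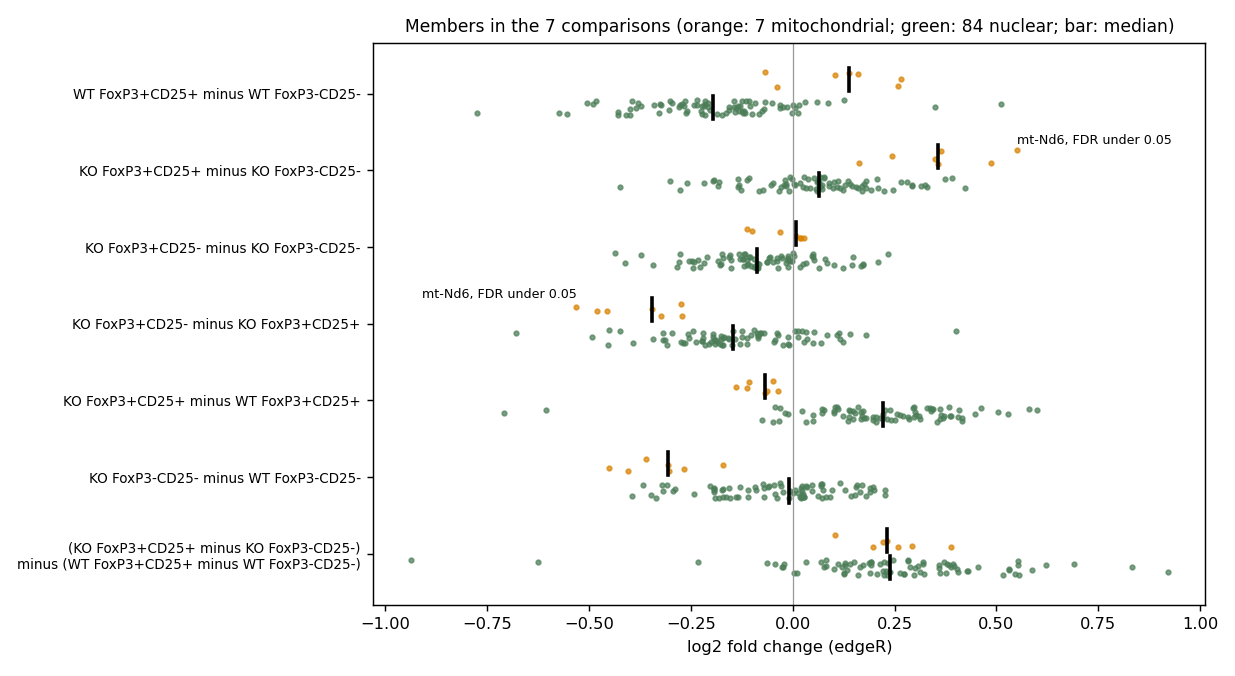
Log2 fold changes (edgeR) of the 7 mitochondrial genes with ample counts (orange) and the 84 nuclear members tested (green) in the 7 comparisons, with medians as bars. The nuclear points lie mostly below 0 in WT FoxP3+CD25+ minus WT FoxP3-CD25- (median -0.19), a direction that turns to 0.07 without WT FoxP3+CD25+ replicate 1, and mt-Nd6 is the gene called in both comparisons that carry its name.

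Complex I, the largest complex, has 36 nuclear members here, all tested, with mean levels of 3.53 to 108.1 CPM. Of the 36, 31 had lower fitted values in WT FoxP3+CD25+ than in WT FoxP3-CD25- cells, a count that rests on the library described above, and 27 had higher values in the KO contrast, with 12 of 36 lying higher without overlap, where 23.6% of all genes did so. Per length the highest were Ndufa2 (56.8 CPM per kilobase of exon) and Ndufa1 (54.8), both small accessory subunits. The gene with the lowest p in WT Tregs was Ndufb10, an accessory subunit of the membrane arm (chr17:24722060-24724478, minus strand). It was at 28.0 and 43.1 CPM in WT FoxP3+CD25+ cells and at 56.1 and 49.8 CPM in WT FoxP3-CD25- cells, so it was lower in both mice, with within-mouse log2 differences of -1.001 and -0.21. Its log2 fold change was -0.57 ± 0.19 (SE; edgeR adjusted p = 0.0895), and in KO mice both Treg libraries (42.4 and 49.0 CPM) overlapped with the FoxP3-CD25- libraries (45.5 and 47.2 CPM). Ndufs7, which carries an iron-sulfur cluster of the electron path (chr10:80249121-80256794, plus strand), was at 28.8 and 43.4 CPM in WT FoxP3+CD25+ and 46.2 and 51.1 CPM in WT FoxP3-CD25- cells. In KO cells it was at 44.1 and 44.7 CPM in FoxP3+CD25+, 49.0 and 60.2 CPM in FoxP3-CD25- and 51.9 and 48.8 CPM in FoxP3+CD25- cells. Ndufs7 was thus lower in FoxP3+CD25+ than in FoxP3-CD25- cells of all 4 mice, with log2 differences of -0.68, -0.24, -0.15 and -0.43. With the mouse as a block, Ndufb10 (adjusted p = 0.0237) and Ndufs7 (adjusted p = 0.0356) were the 2 nuclear members called in WT mice, where 19.1% of all genes were called. In both genes the larger WT difference was that of mouse 1, whose FoxP3+CD25+ library held the lowest value of most nuclear members.

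Complex II, succinate dehydrogenase, has 4 subunits that are all nuclear, and it also works in the tricarboxylic acid cycle. Sdha, the flavoprotein subunit that oxidises succinate, varied little. It was at 285.2 and 288.0 CPM in WT FoxP3+CD25+, 295.4 and 306.9 CPM in WT FoxP3-CD25-, 265.0 and 296.2 CPM in KO FoxP3+CD25+, 297.2 and 319.2 CPM in KO FoxP3-CD25- and 278.0 and 302.5 CPM in KO FoxP3+CD25- cells. Its lowest value was not in WT FoxP3+CD25+ replicate 1 but in KO FoxP3+CD25+ replicate 1. Its log2 fold changes lay between -0.14 and 0.05 over the 6 comparisons of 2 groups, with SEs of 0.10. The iron-sulfur subunit Sdhb and the membrane anchors Sdhc and Sdhd ranged over the 10 libraries from 53.0 to 73.8, from 34.2 to 45.8 and from 35.4 to 48.1 CPM, and none was called.

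Complex III has 8 nuclear members under the rule, with mean levels of 10.1 to 123.6 CPM, and Uqcrh (69.6 CPM per kilobase of exon) and Uqcrc2 (47.0) were highest per length. Uqcr10, a small subunit (chr11:4701973-4704342, minus strand), was at 11 and 31.1 CPM in WT FoxP3+CD25+ cells and at 23.6 to 31.4 CPM in the other 8 libraries. The 2 WT FoxP3+CD25+ libraries were thus the lowest and close to the highest. Its KO FoxP3+CD25+ values, 29.1 and 27.4 CPM, overlapped with 27.8 and 26.3 CPM in KO FoxP3-CD25- cells. All 8 genes had lower fitted values in KO FoxP3+CD25- than in KO FoxP3+CD25+ cells, with a median of -0.16. None was called, where 7.01% of all genes were called.

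Complex IV was represented by 20 nuclear symbols, of which 12 were tested, and the 8 that were not are alternative forms of subunits, most of them known from other tissues. Cox4i1, the common form of subunit 4, was at 113.6 and 216.5 CPM in WT FoxP3+CD25+ cells and at 162.6 to 206.3 CPM elsewhere, while Cox4i2, the form known from lung, had 0 counts in all 10 libraries. Cox6a1 (121.2 CPM per kilobase of exon, highest of the complex beside Cox4i1 at 120.2) stood against a single count of Cox6a2, its heart and muscle form. Cox6b1 had 5128 counts and Cox6b2, known from testis, 33. Cox7a2 had 2825 counts and Cox7a2l, which is known to help join complexes III and IV, 10166, against 51 of the heart and muscle form Cox7a1. Cox8a had 4549 counts, against 4 of Cox8b and 0 of Cox8c, and Cox7b 3506 against 2 of Cox7b2. Ndufa4, named for complex I and since assigned to complex IV, had 4068 counts, against 4 of Ndufa4l2, a form known to be induced by low oxygen. A count of 0 in a library allows up to 3 counts there, 0.242 to 0.492 CPM.

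In complex IV no gene was called in any comparison, where 0% to 10.9% of all genes tested were called. The 12 genes tested had median log2 fold changes of 0.00017 between KO FoxP3+CD25+ and FoxP3-CD25- cells and -0.16 between KO FoxP3+CD25- and FoxP3+CD25+ cells. Cox7a2l was at 115.2 and 132.3 CPM in KO FoxP3+CD25+, 93.6 and 126.0 CPM in KO FoxP3-CD25-, and 108.8 and 134.4 CPM in KO FoxP3+CD25- cells, which overlapped.

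Complex V has 15 nuclear members here, all tested, and held the most abundant nuclear transcripts. Atp5a1 and Atp5b, the alpha and beta subunits of the catalytic head, were at 509.1 to 601.5 and at 527.2 to 639.9 CPM over the 10 libraries. Per kilobase of exon Atp5a1 was at 174.4 CPM and Atp5b at 137.5 CPM. The 3 genes Atp5g1, Atp5g2 and Atp5g3 encode the same subunit c of the membrane ring with different import sequences, and had 1639, 3967 and 9020 counts. Atp5g1 was at 25.3 and 22.7 CPM in KO FoxP3+CD25+, 11.5 and 17.9 CPM in KO FoxP3+CD25- and 19.5 and 20.3 CPM in KO FoxP3-CD25- cells. The FoxP3+CD25- libraries were lowest, with a log2 fold change of -0.68 ± 0.30 against KO FoxP3+CD25+ cells (SE; edgeR adjusted p = 0.241). Atp5j, a subunit of the stalk (chr16:84827866-84835625, minus strand), was at 88.5 and 81.6 CPM in KO FoxP3+CD25+, 71.6 and 68.5 CPM in KO FoxP3-CD25- and 65.1 and 64.6 CPM in KO FoxP3+CD25- cells. These 3 groups did not overlap. In the KO contrast of FoxP3+CD25+ with FoxP3-CD25- cells 13 of the 15 complex V genes had positive fitted values and 8 of the 15 lay higher without overlap, where 23.6% of all genes did so. In KO FoxP3+CD25- cells 11 of 15 lay below the FoxP3+CD25+ libraries without overlap, where 25.3% of all genes did so. The log2 fold change of Atp5j between KO FoxP3+CD25- and FoxP3+CD25+ cells was -0.39 ± 0.14 (SE; edgeR adjusted p = 0.134). It was -0.40 without WT FoxP3+CD25+ replicate 1 and -0.39 without replicate 2. Atp5j was called in both of these fits, which leave 1 library in the WT FoxP3+CD25+ group. With all 10 libraries it was not called by DESeq2 (adjusted p = 0.215) or by edgeR with no filter (adjusted p = 0.261). Nor was it called by edgeR with the replicate number (adjusted p = 0.0978) or the mouse (adjusted p = 0.0532) as a block.

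Over all complexes, no nuclear member was called between any 2 KO populations by edgeR, where 1.67% to 7.01% of all genes were called, or by DESeq2. Between FoxP3+CD25+ and FoxP3-CD25- cells the median log2 fold change was 0.06 with 56 of 84 positive, and none had an unadjusted p under 0.05. Between FoxP3+CD25- and FoxP3+CD25+ cells the median was -0.15 with 66 of 84 negative, and 5 had an unadjusted p under 0.05. Both FoxP3+CD25- libraries lay below both FoxP3+CD25+ libraries in 38 of the 84 genes, where 25.3% of all genes did so. The intervals were wide. For a nuclear member in this comparison the 95% interval reached a median of 0.46 on the log2 scale to either side of the estimate. Changes under about that size would be missed. These intervals are not adjusted for the number of genes tested, as the calls are, so larger changes could be missed too. Atp5g1 had the lowest log2 fold change of the 84 in this comparison, -0.68, and was not called.

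Between genotypes in FoxP3-CD25- cells the nuclear members had a median log2 fold change of -0.01, with 41 of 84 positive. None was called by edgeR, where 0.145% of all genes were called, or by DESeq2, and none had an unadjusted p under 0.05. The sign of this median depended on scaling, with 0.02 when library size alone was used.

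The 2 genomes were also set against each other within each library, which needs no scaling between libraries. Mitochondrial members took 1.20% to 1.85% of the counts on genes and nuclear members 0.400% to 0.556%. Counts on the 13 mitochondrial members per count on the 92 nuclear members were 3.73 and 3.34 in WT FoxP3+CD25+, 2.91 and 2.91 in WT FoxP3-CD25-, 2.70 and 3.20 in KO FoxP3+CD25+, 2.35 and 2.62 in KO FoxP3-CD25- and 2.54 and 2.60 in KO FoxP3+CD25- cells. Within each mouse the ratio was higher in FoxP3+CD25+ than in FoxP3-CD25- cells (4 of 4 mice), by 0.36, 0.20, 0.20 and 0.29 on the log2 scale. The mean was 0.26 ± 0.08 (SD, n = 4 mice; exact sign-flip permutation test, two-sided, p = 0.12, the smallest that 4 mice allow). In WT mouse 1 the Tregs had a nuclear share of 0.400% against 0.547% in the conventional cells, and a mitochondrial share of 1.49% against 1.59%. In the other 3 mice the mitochondrial share was higher in FoxP3+CD25+ cells by 0.353, 0.235 and 0.392 percentage points, and the nuclear share by 0.0392, 0.0196 and 0.0259. Over 4 mice the mean difference was 0.22 ± 0.223 percentage points for the mitochondrial share (SD, n = 4; exact sign-flip p = 0.25) and -0.0155 ± 0.0879 for the nuclear share (SD, n = 4; exact sign-flip p = 1). Reads that align to more than 1 place were not assigned to genes, and 5 of the mitochondrial genes have identical nuclear copies. These shares may therefore lie below the true mitochondrial share of RNA.

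**Figure D5:**
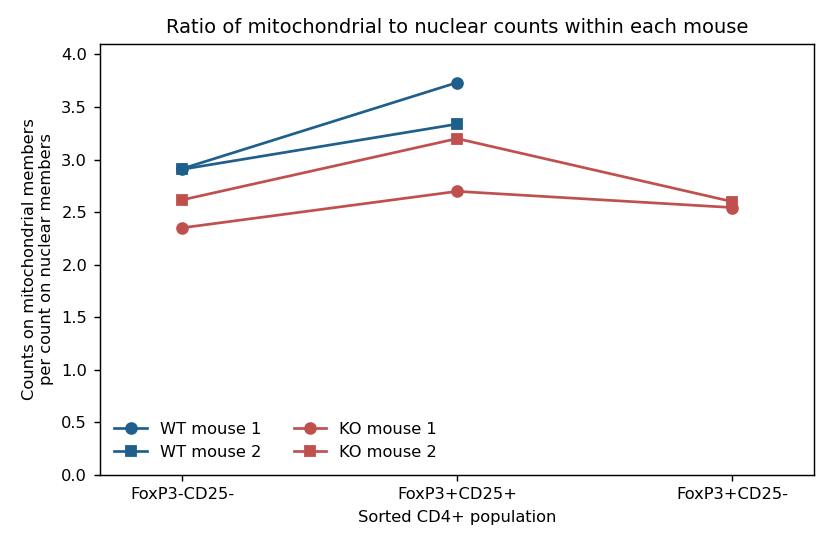
Counts on mitochondrial members per count on nuclear members (axis from 0) in each sorted population, with lines joining the libraries of 1 mouse (WT blue, KO red, mouse 1 circles, mouse 2 squares). All 4 lines rise from FoxP3-CD25- to FoxP3+CD25+ cells, and both KO lines fall again to 2.54 and 2.60 in FoxP3+CD25- cells.

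As a percent of the counts on the 7 readable mitochondrial genes, mt-Nd6 took 4.84% and 4.42% in Tregs of WT mice, against 4.36% and 3.96% in their conventional cells. In KO mice it took 4.46% and 4.50% in Tregs, 3.95% and 3.66% in conventional cells and 3.97% and 3.85% in FoxP3+CD25- cells. The share of counts on mt-Nd6 was thus higher in the Tregs than in the conventional cells of all 4 mice. Reads of mt-Nd6 and reads antisense to it cannot be told apart in this share, which was not tested.

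Other genes of mitochondrial respiration were read from lists that also hold no member. Of 38 assembly factors tested, 1 was called in each genotype, where 10.9% of all genes were called in WT and 6.34% in KO mice. Sdhaf1, an assembly factor of complex II that serves the iron-sulfur subunit, was at 36.1 and 49.4 CPM in WT FoxP3+CD25+, 25.3 and 20.2 CPM in WT FoxP3-CD25-, 46.4 and 49.4 CPM in KO FoxP3+CD25+, 16.7 and 20.7 CPM in KO FoxP3-CD25- and 24.4 and 26.9 CPM in KO FoxP3+CD25- cells. It rose in FoxP3+CD25+ over FoxP3-CD25- cells, with a log2 fold change of 0.91 ± 0.18 in WT (SE; edgeR adjusted p = 0.00782) and 1.35 ± 0.19 in KO mice (SE; edgeR adjusted p = 0.00196). It was lower in KO FoxP3+CD25- than in KO FoxP3+CD25+ cells by 0.90 on the log2 scale (edgeR adjusted p = 0.0135). Sdhb, the iron-sulfur subunit, was not called in any comparison.

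Of 20 genes of the tricarboxylic acid cycle and pyruvate entry, 1 was called, in comparisons where 6.34% to 10.9% of all genes were called. This was Idh2, the NADP-dependent isocitrate dehydrogenase of mitochondria. It was at 23.0 and 25.9 CPM in WT FoxP3+CD25+, 44.1 and 56.1 CPM in WT FoxP3-CD25-, 23.2 and 31.4 CPM in KO FoxP3+CD25+, 42.8 and 46.4 CPM in KO FoxP3-CD25- and 44.1 and 46.8 CPM in KO FoxP3+CD25- cells. Idh2 fell in Tregs of both genotypes, with log2 fold changes of -1.03 ± 0.17 (SE; edgeR adjusted p = 0.00258) in WT and -0.70 ± 0.17 (SE; edgeR adjusted p = 0.0373) in KO mice. KO FoxP3+CD25- cells had more than KO FoxP3+CD25+ cells (log2 fold change of 0.73 ± 0.17, SE; edgeR adjusted p = 0.0277) and were near KO FoxP3-CD25- cells.

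Among 9 regulators of nuclear respiratory genes that were tested, Gabpb1, a subunit of the ETS-family factor GABP, was called higher in WT Tregs (log2 fold change of 0.46 ± 0.12, SE; edgeR adjusted p = 0.0330) and none was called in KO mice. The share of all genes called was 10.9% in the WT contrast and 1.67% to 7.01% in the contrasts within KO mice. None of 33 genes of mitochondrial DNA and RNA upkeep, of 8 electron carriers and further subunits, or of 77 genes of the mitochondrial ribosome was called in any comparison. Over all genes tested, 0% to 10.9% were called, depending on the comparison. The mitochondrial rRNA genes mt-Rnr1 and mt-Rnr2 were not called either, and mt-Rnr2 was at 1231 to 1431 CPM in KO FoxP3+CD25+ and at 922.5 to 1289 CPM in KO FoxP3-CD25- cells. Of 9 mitochondrial tRNAs tested of 22 listed, none was called.

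A promoter motif of respiratory genes was looked up in the nuclear members. Nuclear respiratory factor 1 (NRF1) is known to bind a palindromic GC-rich site in many respiratory promoters, and its core was searched as GCATGCGC on both strands (GCGCATGC) in the RefSeq windows from 250 bases before to 50 after each start (GRCm38.p6). Of the 92 nuclear members, 73 had a window, and 12 of these (16.4%) held the core, against 3.05% of all 27025 symbols with a window. Of the 69 tested members with a window 17.4% held it, against 6.26% of the 9183 tested genes with a window. The 3 of the 12 with the highest level per length are shown with the core in capitals, the overlapping forms included, 5′ to 3′ in the direction of the gene: Cox6a1 at chr5:115349086-115349145, Ndufa8 at chr2:36049339-36049398 and Atp5k at chr5:108434415-108434474, all on the minus strand.

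Cox6a1: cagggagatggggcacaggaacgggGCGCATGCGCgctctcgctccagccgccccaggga

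Ndufa8: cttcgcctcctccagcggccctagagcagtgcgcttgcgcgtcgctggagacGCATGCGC

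Atp5k: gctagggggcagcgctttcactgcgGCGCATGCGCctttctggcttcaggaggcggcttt

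In Cox6a1 and Atp5k the forward and reverse forms of the core overlap into the full palindrome. None of the 12 was called in any of the 7 comparisons, in which 0% to 10.9% of all genes tested were called. Cox6a1 was at 95.4 and 85.9 CPM in KO FoxP3+CD25+ and 102.1 and 86.2 CPM in KO FoxP3-CD25- cells. Ndufa8, an accessory subunit of complex I, was at 37.7 and 27.8 CPM against 39.2 and 39.0 CPM, and Atp5k, a membrane subunit of complex V, at 19.7 and 25.4 CPM against 22.3 and 19.0 CPM, so Cox6a1 and Atp5k overlapped and Ndufa8 did not. A match of these letters is a description, and binding was not measured here.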

How the data were processed

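The deposited values are raw counts of reads per gene symbol, 1 file per library, with the tallies of unassigned reads kept apart. Per the labels, the authors aligned 50-base reads to mm10 (GRCm38) with HISAT2 (version 2.1.0) and counted them with HTSeq (version 0.11.1). Positions came from GENCODE M21 and matched 103 of 105 members. Counts were compared with edgeR (version 4.0.16): all 10 libraries in 1 model, filterByExpr with a minimum count of 10 (13796 genes), TMM, quasi-likelihood F-tests, Benjamini-Hochberg FDR 0.05. CPM are TMM-scaled. Members and lists were chosen with earlier results of these data known. Named were the mitochondrial members, members called, isoform families, complex II, the 2 highest per length in each complex and called list members. Ndufb10, Ndufs7, Atp5j, Uqcr10, Cox7b, Cox7b2, Ndufa8, Atp5k, Atp5e and Atp5h were chosen after their values were seen. The number in the sample titles was read as the mouse. Over all genes tested, deviations from group means of same-numbered libraries correlated at 0.303 in WT and 0.421 to 0.445 in KO mice. Over the members alone they correlated at -0.055 in WT and 0.134 to 0.340 in KO mice, so the WT pairing was not seen in the members. The steps were tested on simulated data. Alternatives were other filters, scalings, tests and blocks, DESeq2 (version 1.42.0), and each library left out.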

Additional observations from a re-analysis of the deposited data

Results flagged for a closer look

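Sdhc, a membrane anchor of complex II, was lower in FoxP3+CD25+ than in FoxP3-CD25- cells in both WT mice (log2 differences of -0.42 and -0.005) and higher in both KO mice (0.03 and 0.09), a mean difference between genotypes of 0.27 on the log2 scale. The sign was negative in every WT mouse and positive in every KO mouse, which is what singled it out among the members named. The values of WT mouse 2 and of both KO mice lay near 0. In edgeR's quasi-likelihood test of that difference the log2 value was 0.26 ± 0.22 (SE), with an unadjusted p of 0.254 and an adjusted p of 0.9999, and the WT mouse 1 value includes the WT FoxP3+CD25+ library in which most nuclear members were low. Groups held 2 libraries, too few for a test of outlying samples.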

How the results depend on the processing

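Of the recomputed counts of members called, 267 stayed within 1.5 times the reported count and 23 did not. In the FoxP3+CD25+ minus FoxP3-CD25- comparison of KO mice, the 1 mitochondrial member called became 2 with no filter on low counts, with DESeq2 and with the replicate number as a block, and 3 with the mouse as a replicate block. In KO FoxP3+CD25- minus FoxP3+CD25+ the 1 became 3 with no filter, with DESeq2 and with either replicate block. With the mouse as a block the share of all genes called rose too. It went from 6.34% to 12.0% in the first comparison and from 7.01% to 15.1% in the second. The share of all genes called with no filter, with DESeq2 or with the replicate number as a block is not given here. Leaving out 1 library each gave 0 to 1 mitochondrial members in the first and 0 to 2 in the second, and 0 to 1 nuclear members in the second. In WT mice the 0 nuclear members called became 1 with the replicate number as a block, 2 with the mouse as a block, and 0 to 30 with 1 library left out, and in the difference between genotypes 0 to 5. The cause was not tested. The blocks changed no other count of members called, and the mouse could not be a block between genotypes, which share no mouse. With 1 mouse left out the difference in nuclear share lay between -0.0338 and 0.0283 percentage points, the mitochondrial share between 0.163 and 0.327, and the log2 ratio between 0.229 and 0.282. The lone library left in a group is assumed to vary like the other groups. No member called as reported changed sign. Of the 6 mitochondrial genes with few counts, 5 share nearly all of their sequence with nuclear copies. The part of this in their counts was not tested. The precision of the other members is limited by 2 libraries a group.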
